A study of Mus musculus with 6 samples.

Results

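The proteasome genes of mouse splenic regulatory T cells (Treg) are described here in 6 RNA sequencing libraries, 3 labelled cKO and 3 labelled WT. Members were the rows of the table whose Ensembl identifier maps to a protein-coding symbol of the Psma to Psmg families followed by a digit, with a mean of at least 1 FPKM (fragments per kilobase of transcript, scaled to the library, so a level per length) over the 6 libraries. Of 36811 rows, 52 matched the symbol pattern, 3 of them pseudogenes and 49 protein-coding. The members were 47 of these. Psma8, the alpha subunit of the testis, and Psmb11, the catalytic subunit of the thymic cortex, fell under the minimum. Psma8 was listed between 0 and 0.816 FPKM, and Psmb11 was listed at 0 in every library. No row was matched to Psmb9 through the reference tables, so this immune subunit is not analysed here.

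The cells were sorted by flow cytometry, gated on the GFP reporter of Foxp3 after enrichment of CD4+ T cells, from the spleen of C57BL/6 mice aged 18 to 21 weeks. The libraries labelled cKO come from Bach2fl/fl Foxp3EGFP-Cre-ERT2 mice and those labelled WT from Bach2+/+ Foxp3EGFP-Cre-ERT2 mice. Both groups thus carry EGFP and the Cre-ERT2 recombinase at Foxp3, the gene of the factor that defines Treg. Cre-ERT2 acts only once a ligand such as tamoxifen is given, and neither that treatment nor the number of animals behind a library is given in the sources used here. The comparison addresses what loss of the transcriptional repressor Bach2 in Treg does to gene expression. No label says that a group's libraries are separate mice, so p-values cover the spread between libraries only, and that may be technical.

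The proteasome is the protease that degrades ubiquitin-tagged proteins. Its 20S core is a barrel of outer alpha rings, which gate the entrance, and inner beta rings, which hold the catalytic sites of Psmb5, Psmb6 and Psmb7. In lymphocytes and in cells exposed to interferon-gamma these catalytic subunits are replaced by Psmb8, Psmb9 and Psmb10, which gives the immunoproteasome and a supply of peptides for MHC class I. The 19S cap recognises, unfolds and feeds in substrates, while the alternative 11S cap of Psme1 and Psme2 opens the gate without ATP.

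Across these libraries Bach2 measured 7.88, 9.19 and 6.44 FPKM (cKO 1 to 3) versus 3.29, 8.25 and 4.80 FPKM (WT 1 to 3). It was not lower under the cKO label. A value for the whole gene need not show an excised exon, so each direction below rests on the labels alone. The Treg markers Foxp3, Cd3e, Cd4, Il2ra, Ikzf2 and Ctla4 were all detected in every library. Cd8a lay between 0 and 0.531 FPKM, but Cd8b1 between 18.8 and 22.4 FPKM, above Foxp3 at 5.16 to 9.44 FPKM. Pairwise correlations of the libraries on the log2 scale lay between 0.881 and 0.915 over 11979 genes. From the steps between the lowest values a library was estimated to hold about 3084000 to 5011000 fragments, which need not be the number sequenced. The estimate puts from 27 fragments, for Psmc3ip, to 22659, for Psme2, behind a member's value in a library. Levels deviated with transcript length, falling with it in cKO 2 and rising with it in WT 2 and cKO 1. The library cKO 2 also held the highest sum of myeloid markers. Values are given beside the results they touch.

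Proteasome transcripts were abundant, with the immune subunits Psme2, Psmb8 and Psme1 at the top, while the immune subunit Psmb10 at 328 FPKM stood below several ordinary subunits. The median member stood at 172 FPKM, against 14.1 FPKM for the median of the 11979 genes that met the same minimum. Of the 47 members, 16 were among the top 5% of these genes and 43 among the top 25%. Psme2, the beta chain of the 11S cap, was the highest with a mean of 4273 FPKM and ranked 28 of the 11979. Psmb8, the immune counterpart of Psmb5, followed at 1405 FPKM, and Psme1, the alpha chain of the 11S cap, at 1139.5 FPKM. The ranges of Psmb8 (1270.0 to 1631 FPKM) and Psme1 (1069 to 1276 FPKM) touched, whereas every value of Psme2 lay above both. Psmb4, a structural beta subunit at 739 FPKM, was the next, and no Psmb4 value reached a Psme1 value. Summed over the 47 members the level was 14649.7, 15887.6 and 16668.6 FPKM for cKO 1 to 3 and 14968.8, 13905 and 14305.2 FPKM for WT 1 to 3. Of this Psmb8, Psmb10, Psme1 and Psme2 made up 6228 to 7979 FPKM, the 14 ordinary core subunits 3814 to 4868 FPKM and the 17 subunits of the 19S cap 2585 to 3173 FPKM. WT 2 held the lowest sums of immune and core subunits and the highest of the 19S cap.

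The subunits of one particle were not at one level. The 14 ordinary 20S subunits spanned a 7.19-fold range of means, from Psma5 at 103 FPKM to Psmb4. A barrel without immune subunits holds these 14 in equal number. The 17 subunits of the 19S cap spanned 6.67-fold, from Psmc6, an ATPase, at 54.6 FPKM to Psmc3, another ATPase, at 364 FPKM. The lowest members were Psme4, a cap of the nucleus and of sperm, at 4.38 FPKM, and Psmc3ip at 8.29 FPKM. Psmc3ip matches the symbol pattern but encodes a partner of meiotic recombinases and is no proteasome subunit. Some levels are uncertain because retrocopies and pseudogenes share the sequence. In 5 members more than 50% of the 31-base words of the transcript also occur in transcripts of other genes, with 78.4% for Psme2b, 73.99% for Psmb5, 66.9% for Psmb3, 66.2% for Psme2 and 64.0% for Psma5. How the authors' counting split such fragments is not given in the sources used here. For Psme2 the sharing gene is Psme2b, itself a member at 182 FPKM.

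**Figure D1:**
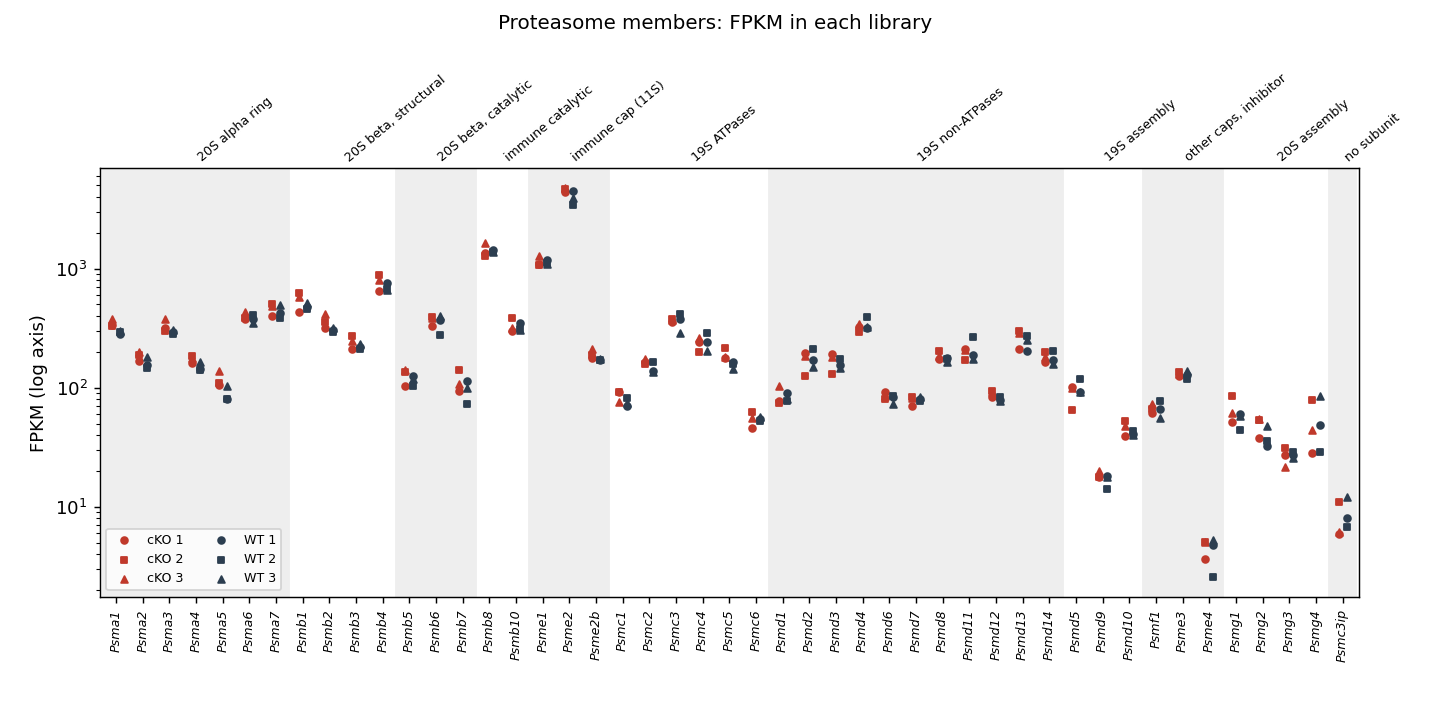
FPKM of the 47 members (x axis, grouped by role) on a log axis, with 1 point per library, cKO in red and WT in dark blue, and marker shapes for replicates 1 to 3. Psme2, Psmb8 and Psme1 lie at the top, and for most members the red and blue points overlap.

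No member passed the test after adjustment. Differences were fitted with limma on log2(FPKM + 1) over all 11979 genes, with a Benjamini-Hochberg adjusted p of 0.05 as threshold, and 0 of 47 members passed, with adjusted p from 0.921 to 0.999. Among all genes tested 0.025% passed, 0.00835% higher and 0.0167% lower under the cKO label. At an unadjusted p under 0.05, 1 member was higher and 0 were lower in the libraries labelled cKO, against 3.59% and 1.78% of all genes, or 5.37% in either direction. The groups did not overlap in 6 members, all higher under the cKO label and 12.8% of the members, against 6.96% of all genes higher and 3.75% lower. The fitted value lay above 0 in 37 of 47 members, with a median log2 difference of 0.12, beside 55% and a median of 0.03 for all genes tested. The count of 37 was 27 after quantile normalization and 45 with equal sums of FPKM, and adjusted calls stayed at 0 in both. The 1 member at an unadjusted p under 0.05 became 0 without cKO replicate 3, WT replicate 1 or WT replicate 2 and 3 without cKO replicate 1. It became 6 with equal sums, 8 with library quality weights and 0 after quantile normalization. The 95% intervals had a median half-width of 0.37 (log2), and 46 of 47 lay within a log2 difference of 1 in either direction. The exception was Psmg4. For low members such as Psmc3ip and Psme4 the added 1 makes these differences smaller than those in FPKM. In bulk samples fewer cells of a type and less RNA per cell cannot be told apart.

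**Figure D2:**
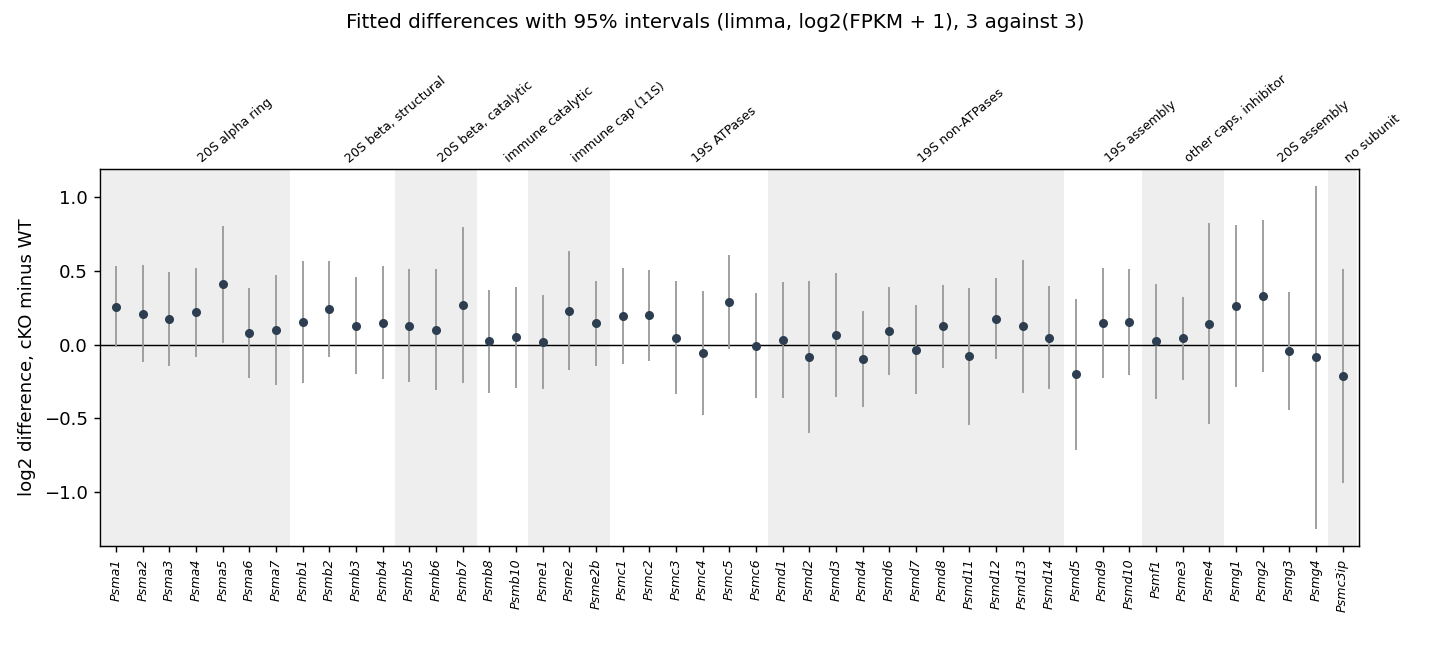
Fitted log2 difference, cKO minus WT, on log2(FPKM + 1) for each of the 47 members, grouped by role, with limma's 95% intervals from 3 against 3 libraries. Only the interval of Psma5 does not include 0 before adjustment, and Psmg4 has the widest interval, from -1.25 to 1.08.

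The alpha ring of the 20S core had the highest median difference of the larger role groups. All 7 measured alpha subunits lay above 0, except Psma6 after quantile normalization (-0.03) and Psma7 without cKO replicate 2 and WT replicate 2 (-0.05), with a median of 0.21, and none passed. Psma5 measured 105, 108 and 138 FPKM (cKO 1 to 3) versus 80.7, 80.9 and 102 FPKM (WT 1 to 3). The highest WT value lay just under the lowest cKO value, so the groups did not overlap. The log2 difference was 0.41 and its standard error 0.167 (limma, unadjusted p = 0.0452, adjusted p = 0.921), and Psma5 was the one member under an unadjusted 0.05. Psma1 read 339, 329 and 374 FPKM in cKO 1 to 3, with WT readings of 283, 291 and 297 FPKM. These groups did not overlap either, with a log2 difference of 0.26 and a 95% interval from -0.02 to 0.53 (limma, adjusted p = 0.925). The gate subunit Psma3 lay at 314, 301 and 379 against 293, 280.3 and 302 FPKM, with a difference of 0.18. Psma7, the most abundant alpha subunit, lay at 403, 507 and 487 against 428, 383 and 494 FPKM, and its groups overlapped widely. For Psma2, Psma4 and Psma6 the log2 differences were 0.21, 0.22 and 0.08.

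In the beta ring the values from all 6 libraries were also small and positive, and the groups overlapped in all genes but Psmb2. All 4 structural subunits, Psmb1 to Psmb4, lay above 0, from 0.13 to 0.24, except Psmb3 after quantile normalization (-0.002). Psmb2 measured 319, 356 and 412 FPKM (cKO 1 to 3) versus 306, 291 and 317 FPKM (WT 1 to 3). Its lowest cKO library stood barely above its highest WT library, and the log2 difference was 0.24 (limma, adjusted p = 0.925). Psmb4 stood at 643, 886 and 809 against 754, 675 and 665 FPKM, so that cKO 1 was the lowest of the 6. Psmb1 and Psmb3 likewise had their lowest value in cKO 1 and their highest in cKO 2, from 428 to 622 and from 209.7 to 272 FPKM, with differences of 0.15 and 0.13. The constitutive catalytic subunits overlapped between the groups. Psmb5, the chymotrypsin-like subunit, read 104, 137 and 139.5 FPKM in cKO 1 to 3, and the WT readings were 124, 104 and 118 FPKM. Psmb6, the caspase-like subunit, stood at 332, 395 and 387 against 371, 279 and 398 FPKM. Psmb7, the trypsin-like subunit, stood at 94.2, 141 and 107 against 113, 72.5 and 98.5 FPKM. In each of these 3 genes WT 2 held the lowest value, in Psmb5 narrowly, at 103.6 against 103.7 FPKM in cKO 1. The log2 differences were 0.13, 0.10 and 0.27 for Psmb5, Psmb6 and Psmb7, none passed, and that of Psmb6 was -0.02 after quantile normalization.

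Taking both rings, 14 of 14 ordinary core subunits lay above 0, with a median of 0.16. This count depends on libraries and scaling. It was 11 after quantile normalization, 13 without WT replicate 2, and 10 without cKO replicate 2 and WT replicate 2 together, a setting chosen after the data were seen, where the median was 0.08. It stayed at 14 with trimmed-mean scaling and with equal sums of FPKM. Equal sums moved the median of all genes from 0.03 to 0.17 and the core median to 0.32, while quantile normalization gave a core median of 0.06. With 1 library left out it ran from 0.11 without cKO replicate 2 to 0.27 without cKO replicate 1.

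The measured immune subunits had log2 differences from 0.02 to 0.23, and none passed. Psmb8 (ENSMUSG00000024338) measured 1358, 1270.0 and 1631 FPKM (cKO 1 to 3) versus 1419, 1365 and 1389 FPKM (WT 1 to 3). The WT values lay within the range of the cKO values, and the log2 difference was 0.02 with a 95% interval from -0.33 to 0.37 (limma, adjusted p = 0.997). Psmb10 (ENSMUSG00000031897), the immune counterpart of Psmb7, stood at 298, 387 and 318 against 348, 312 and 306 FPKM. Here too the WT values lay inside the cKO range, with a difference of 0.05 and an interval from -0.30 to 0.39 (adjusted p = 0.982). Psme1 (ENSMUSG00000022216) stood at 1097, 1069 and 1276 against 1177, 1118 and 1099.8 FPKM, with a difference of 0.02 and an interval from -0.30 to 0.34. Psme2 (ENSMUSG00000079197) stood at 4357, 4701 and 4754 against 4455, 3434 and 3937 FPKM. Only WT 1 reached into the cKO range, and the difference was 0.23 with an interval from -0.17 to 0.63 (limma, adjusted p = 0.925). The retrocopy Psme2b stood at 176, 187 and 210.4 against 170.3, 171 and 176 FPKM, groups that did not overlap by a margin of under 1 FPKM. The 4 measured immune subunits had a median log2 difference of 0.03, and that of all genes was 0.03. The sign of 3 of them depends on the processing. Psmb8 and Psme1 lay at -0.02 with trimmed-mean scaling, and Psmb10 lay at -0.07 after quantile normalization.

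Transcripts of immune and ordinary subunits were compared as a ratio within each library, which does not depend on how libraries are scaled. Such ratios of RNA do not measure which subunits the assembled particles hold. The level of Psmb8 was 13.1, 9.30 and 11.7 times that of Psmb5 in cKO 1 to 3 and 11.4, 13.2 and 11.8 times in WT 1 to 3. The mean ratio was 11.4 ± 1.92 (SD, n = 3) under the cKO label and 12.1 ± 0.927 (SD, n = 3) under the WT label. The log2 difference was -0.11 (exact permutation test, two-sided, p = 0.6) and ran from -0.22 to 0.093 with libraries left out. This ratio was lowest in cKO 2 and highest in WT 2, and Psmb8 and Psmb5 have transcripts of 1628 and 899 bases. The part of length in it was not tested beyond leaving out libraries. The level of Psmb10 was 3.16, 2.75 and 2.97 times that of Psmb7 in the cKO libraries, against 3.07, 4.30 and 3.10 times in WT 1 to 3. The ratio was highest in WT 2, where Psmb7 was lowest, and the log2 difference was -0.22 (exact permutation test, p = 0.3). It was -0.06 without WT replicate 2 and -0.01 without cKO replicate 2 and WT replicate 2. For the caps, the 19S ATPase Psmc1 served as the reference. Its mean of 81.1 FPKM lay below the median of 172 FPKM of the 17 subunits of the 19S cap, so the size of these ratios depends on this choice. Psme1 stood at 13.4 ± 2.86 times its level against 15.1 ± 1.56 times (SD, n = 3 each, exact permutation test, p = 0.3). Psme2 stood at 53.7 ± 7.69 times its level against 52.7 ± 10.7 times (SD, n = 3 each, exact permutation test, p = 1). Adjusted over the 4 pairs the p-values were 0.8, 0.6, 0.6 and 1, and 3 libraries against 3 cannot give less than 0.1. All 4 pairs had overlapping groups. Within the immune group, Psmb8 stayed between 1.19 and 1.28 times the level of Psme1 in the 6 libraries, while Psme2 ranged from 3.07 to 4.40 times Psme1. The ratio of Psmb8 to Psmb5 also carries the shared sequence of Psmb5 named above. The cap ratios carry shared 31-base words too, 66.2% for Psme2, 22.1% for Psme1 and 39.65% for Psmc1.

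**Figure D3:**
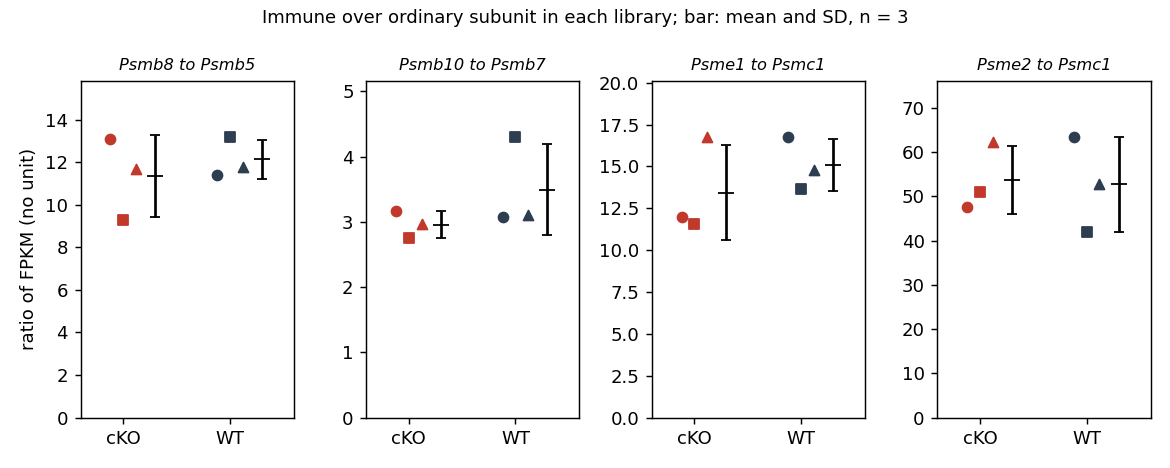
Ratio of the FPKM of an immune subunit to that of an ordinary one in each library, cKO in red and WT in dark blue, with the mean and SD (n = 3) beside the points and axes from 0. In every panel the 2 groups overlap, and WT 2 stands apart in the panel of Psmb10 to Psmb7.

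Psmb8 and Psmb9 neighbour other genes of the class I pathway. In RefSeq's order of protein-coding genes on GRCm38.p6, Psmb9, Tap1, Psmb8 and Tap2 are direct neighbours in the MHC, and Tap1 and Tap2 encode the transporter that carries proteasomal peptides to MHC class I. Psme1 and Psme2 are separated by Emc9 alone, and Rnf31 and Irf9, an interferon signalling factor, follow Psme2. Psmb10 lies between Ctrl and Lcat, away from the others. Tap1 measured 516, 397 and 478 FPKM (cKO 1 to 3) versus 459, 529 and 375 FPKM (WT 1 to 3), and Tap2 read 412, 343 and 374 against 322, 359.7 and 290.5 FPKM. Neither passed, with log2 differences of 0.04 and 0.22.

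Promoters were searched because Bach2 binds sites of the AP-1 type and the immune subunits answer to interferon. RefSeq windows of 300 bases on GRCm38.p6, from 250 before to 50 after the start, were found for 40 of 47 members. The interferon element was searched as TTTC, any 2 bases and TTTC again, the STAT element as TTCNNNGAA, the antioxidant element bound by Nfe2l1 and Nfe2l2 as TGACNNNGC and the AP-1 site as TGANTCA, besides the CCAAT box, on both strands, where the antioxidant and AP-1 letters can overlap. Among 43 member windows, 5 held the interferon element (11.6%, against 3.44% of 32851 windows of all genes), 3 the STAT element (6.98% against 8.30%), 6 the antioxidant element (13.95% against 12.4%), 2 the AP-1 site (4.65% against 7.81%) and 13 the CCAAT box (30.2% against 37.4%). The AP-1 letters were found in Psmb5 and Psmd9. Among the immune subunits, Psmb9 included, Psme1 held the interferon element and Psmb8 the STAT element, each in 1 of 6 windows. The interferon element also lay in Psmb3, Psmd4, Psmd9 and Psmg4, and the STAT element in Psmd2 and Psmg1. The windows of Psmb8, Psme1 and the 2 members with AP-1 letters are shown 5′ to 3′ on the gene's strand. Each match of the first 4 searches is in capitals, and the CCAAT box is unmarked. A match describes letters, not binding.
Psmb8: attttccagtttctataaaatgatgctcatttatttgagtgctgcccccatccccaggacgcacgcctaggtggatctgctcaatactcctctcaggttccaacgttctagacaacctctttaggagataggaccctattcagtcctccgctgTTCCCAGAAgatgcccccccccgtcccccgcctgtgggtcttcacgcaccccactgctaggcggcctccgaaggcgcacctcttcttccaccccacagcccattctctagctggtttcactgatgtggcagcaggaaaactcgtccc
Psme1: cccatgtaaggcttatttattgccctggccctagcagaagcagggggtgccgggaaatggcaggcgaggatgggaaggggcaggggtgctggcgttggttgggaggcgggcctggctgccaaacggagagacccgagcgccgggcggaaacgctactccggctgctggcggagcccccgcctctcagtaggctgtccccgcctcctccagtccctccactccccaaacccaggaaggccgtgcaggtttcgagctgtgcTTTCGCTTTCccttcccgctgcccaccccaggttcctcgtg
Psmb5: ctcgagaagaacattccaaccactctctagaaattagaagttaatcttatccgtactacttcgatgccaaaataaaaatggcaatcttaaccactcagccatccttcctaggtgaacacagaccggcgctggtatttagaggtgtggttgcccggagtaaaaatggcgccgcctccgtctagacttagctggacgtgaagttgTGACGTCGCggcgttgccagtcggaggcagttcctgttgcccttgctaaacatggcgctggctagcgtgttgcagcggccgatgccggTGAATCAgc
Psmd9: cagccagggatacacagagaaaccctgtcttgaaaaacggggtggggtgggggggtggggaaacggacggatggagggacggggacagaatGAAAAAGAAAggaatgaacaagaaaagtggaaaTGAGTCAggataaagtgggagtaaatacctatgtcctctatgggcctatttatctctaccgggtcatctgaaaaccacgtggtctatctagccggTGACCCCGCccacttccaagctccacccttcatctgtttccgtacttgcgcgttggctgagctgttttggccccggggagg
The windows lie at chr17:34197945-34198244 (plus strand), chr14:55578244-55578543 (plus), chr14:54617946-54618245 (minus) and chr5:123227940-123228239 (plus) of GRCm38.p6, a later build than the NCBIM37 and mm9 named for the values. In Psmb8 the STAT element begins 97 bases before the start, and in Psme1 the interferon element begins 9 bases after it. In Psmb5 the antioxidant element begins 47 bases before the start and the AP-1 letters 41 bases after it. In Psmd9 the interferon element begins 159, the AP-1 letters 126 and the antioxidant element 31 bases before the start. Psmb5 had the log2 difference of 0.13 given above. Psmd9, an assembly factor of the 19S cap, read 17.7, 17.8 and 19.98 FPKM in cKO 1 to 3, and the WT readings were 18.2, 14.2 and 17.6 FPKM, a difference of 0.15 that did not pass.

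The 19S cap lay close to the median of all genes. Of its 17 subunits 11 lay above 0, the median log2 difference being 0.05, and none passed. Among the 6 ATPases of the base, which unfold the substrate, Psmc5 measured 178, 216 and 179.8 FPKM (cKO 1 to 3) versus 166, 157 and 144 FPKM (WT 1 to 3). These groups did not overlap, and the log2 difference was 0.29 with a 95% interval from -0.03 to 0.61 (limma, unadjusted p = 0.0680, adjusted p = 0.925). Psmc3, the most abundant ATPase, stood at 354, 378 and 372 against 379, 412 and 289.8 FPKM, with a difference of 0.05. Psmc4 stood at 241, 200.1 and 262 against 239.9, 290.3 and 205 FPKM, with a difference of -0.06. Psmc1, Psmc2 and Psmc6 had differences of 0.19, 0.20 and -0.01.

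Among the 11 non-ATPases, Psmd12, a subunit of the lid, read 83.7, 93.3 and 92.7 FPKM in cKO 1 to 3, and the WT readings were 78.9, 82.7 and 76.5 FPKM. It was the one non-ATPase whose groups did not overlap, with a log2 difference of 0.18 (limma, adjusted p = 0.925). The ubiquitin receptor Psmd4, the highest of these genes, stood at 326, 295 and 339.9 against 315, 389.5 and 326 FPKM, with a difference of -0.10. Psmd14, the deubiquitinase of the lid, stood at 165, 199 and 182 against 170.3, 202 and 157 FPKM, with a difference of 0.05. Psmd2, one of the large scaffolds, stood at 194, 126 and 183 against 170.1, 213 and 148 FPKM. In Psmd2, Psmd3 and Psmd11 cKO 2 was the lowest library and in Psmd2 and Psmd11 WT 2 the highest. Psmd3 and Psmd11 ranged from 131 to 191 and from 170.2 to 267 FPKM, with differences of 0.07 and -0.08. The scaffold Psmd1 and the lid subunit Psmd7 had differences of 0.03 and -0.03. Psmd6, Psmd8 and Psmd13 had differences of 0.09, 0.12 and 0.12. The median of the 19S cap was -0.06 after quantile normalization, 0.14 without WT replicate 2, 0.02 without WT replicate 3, 0.09 without cKO replicate 1 and 0.18 without cKO replicate 2 and WT replicate 2.

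No assembly factor or remaining cap passed, and the groups overlapped in every one of these 10 genes. Psmg1 and Psmg2 form the pair of chaperones that starts the alpha ring. They stood at 51.0, 85.9 and 61.3 against 60.6, 43.8 and 58.3 FPKM and at 37.4, 53.7 and 54.8 against 32.2, 35.8 and 47.4 FPKM, with log2 differences of 0.26 and 0.33. Psmg3 and Psmg4 form the partner chaperone of the alpha ring, and Psmg3 lay between 21.6 and 31.2 FPKM with a difference of -0.04. Psmg4, with a transcript of 555 bases, measured 28.2, 79.4 and 44.2 FPKM (cKO 1 to 3) versus 48.3, 28.9 and 85.3 FPKM (WT 1 to 3). It had the widest spread of all members, 3.03-fold between its lowest and highest library against a median of 1.38-fold, and a difference of -0.09. It lay at 0.26 without cKO replicate 1 and 0.30 without WT replicate 3. Psmd5, an assembly factor of the 19S base, stood at 102, 64.9 and 98.9 against 91.9, 118 and 92.1 FPKM. Its difference of -0.20 was 0.003 without cKO replicate 2. Psmd10, another factor of 19S assembly, lay between 39.1 and 52.8 FPKM with a difference of 0.15. Psme3, the nuclear relative of Psme1 and Psme2, was among the steadiest members, from 118 to 137 FPKM, with a difference of 0.04. Psmf1, an inhibitor of the core, lay between 55.2 and 77.6 FPKM with a difference of 0.02. Psme4 lay at 3.63, 5.10 and 5.02 against 4.74, 2.56 and 5.21 FPKM, and Psmc3ip at 5.87, 10.9 and 6.15 against 8.10, 6.70 and 11.998 FPKM.

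Members deviated by library, also within a group. The median deviation of the 47 members from their mean over the 6 libraries was 0.14 (log2) in cKO 2 and 0.13 in cKO 3, but -0.04 in cKO 1, and it was -0.02, -0.08 and -0.05 in WT 1, 2 and 3. Of the 47 members, 17 had their highest value in cKO 2, 15 in cKO 3, 8 in WT 2, 5 in WT 3, 2 in cKO 1 and 0 in WT 1, while 13 had their lowest in WT 2 and 9 each in cKO 1, cKO 2 and WT 3. Deviations also followed transcript length, falling with it in cKO 2 and rising with it in WT 2 and cKO 1. Across the 47 members Spearman's rho between deviation and length was -0.44 in cKO 2 and 0.41 in WT 2, and between -0.17 and 0.27 in the other 4. Over 11466 genes of known length it was -0.29 in cKO 2, 0.28 in WT 2 and 0.26 in cKO 1. It lay between -0.06 and 0.06 in cKO 3, WT 1 and WT 3. The members share each library, so these values are descriptions. Psmb7 and Psmg1, with transcripts of 1160 and 1044 bases, were highest in cKO 2 and lowest in WT 2. Psmd2, Psmd5 and Psmd11, with 2961, 4397 and 2848 bases, were lowest in cKO 2 and highest in WT 2. So were the shorter Psmc4 and Psmd4, with 1440 and 1332 bases. The longest member, Psme4 with 6491 bases, was lowest in WT 2. A split at 2000 bases did not show the trend with length in WT 2. There the 12 longer and the 35 shorter members both had a median deviation of -0.08. In cKO 2 the medians were -0.03 and 0.18. The part of length in the group differences was not tested beyond leaving out libraries. Leaving out cKO 2 and WT 2 together keeps cKO 1. Without cKO 2 and WT 2, Psmb5, Psmb6 and Psmb7 lay at -0.009, -0.10 and -0.07, all 3 below 0.

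**Figure D4:**
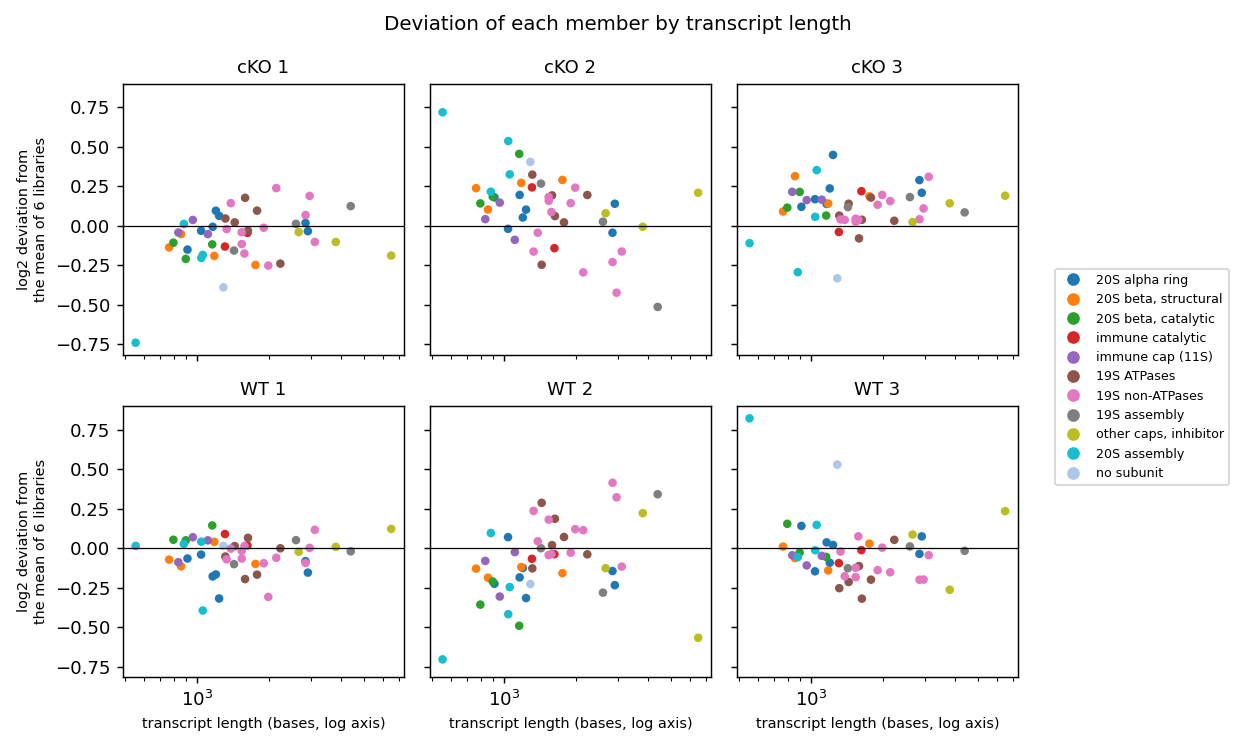
Deviation of each of the 47 members from its mean over the 6 libraries (log2(FPKM + 1), y axis) against transcript length in bases (log x axis), 1 panel per library, with colours for roles. Points tend to fall with length in cKO 2 (rho = -0.44) and to rise with it in WT 2 (rho = 0.41). Exceptions include the longest member, Psme4, and in WT 2 also the long members Psmd9 (-0.28) and Psma2 (-0.23).

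Partners of the proteasome outside the symbol pattern showed no common direction. Of 16 with a row, 6 lay above 0, the median log2 difference being -0.08, and none passed. Nfe2l1, the factor that raises proteasome genes when the proteasome is inhibited, read 30.96, 23.2 and 17.6 FPKM in cKO 1 to 3, and the WT readings were 35.5, 41.2 and 30.3 FPKM. Its highest cKO value lay just inside the WT range, and the difference of -0.58 had a standard error of 0.231 (limma, unadjusted p = 0.0427, adjusted p = 0.915). The related Nfe2l2 stood at 25.6, 25.8 and 20.7 against 26.1, 31.1 and 25.9 FPKM, groups that did not overlap, with a difference of -0.20, a gene named after its values were seen. Pomp, the chaperone that matures the core, stood at 375, 464 and 423 against 351, 353 and 342 FPKM, also without overlap, and a difference of 0.27 (limma, unadjusted p = 0.0770, adjusted p = 0.925). Of the 6 ubiquitin genes and their activating enzymes 2 had a value above 0, with a median of -0.03. The smallest p among them belonged to Uba6, an activating enzyme, with a difference of -0.30 (limma, adjusted p = 0.942).

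Genes of class I peptide supply and its inducers had differences in both directions, from -0.31 to 0.35. Of 13 genes 7 lay above 0, the median log2 difference being 0.02, and none passed. Irf1, a factor of the interferon-gamma response, had a difference of -0.05. Ifngr1, a receptor chain for interferon-gamma, stood at 311, 259.8 and 323 against 206, 257 and 239 FPKM. These did not overlap, and the difference was 0.35 (limma, unadjusted p = 0.0527, adjusted p = 0.925).

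Other transcripts differed between the libraries as well. Of 13 cell cycle genes 12 had a value above 0, with a median of 0.81 and none past the adjusted threshold. Of these genes 7 were higher under the cKO label at an unadjusted p under 0.05 (limma), against 3.59% of all genes tested. In 8 the groups did not overlap, all higher under the cKO label, against 6.96% of all genes tested. Their summed level was 347 to 486 FPKM under the cKO label against 265 to 343 FPKM under the WT label. The sum of the 8 myeloid markers, whose cells also carry immunoproteasomes, was 1174 FPKM in cKO 2. It lay between 379 and 540.2 FPKM in the other 5 libraries. S100a8 stood at 545 FPKM in cKO 2, and Ly6g was listed at 0 in 4 libraries. The 6 myeloid markers that were tested all lay above 0, with a median log2 difference of 0.61. In all 6 the groups overlapped. The sum of the 6 B cell markers was 115 to 155 against 103 to 147 FPKM, and Pax5 was listed at 0 in cKO 3. The 5 that were tested lay above 0, with a median of 0.20. The sum of the 5 CD8 and NK cell markers was 21.9 to 24.1 against 22.3 to 23.2 FPKM. Erythroid and platelet markers summed to 129.7 to 277 against 33.3 to 112 FPKM. The 3 that were tested all lay above 0, with a median of 1.36, and none passed the adjusted threshold. Of these 2 were higher at an unadjusted p under 0.05 (limma), and in 2 the groups did not overlap, beside the shares given above. The values do not show how many cells of these other types remained after the sort on the GFP of Foxp3. Their part, and that of cycling cells, in the proteasome values was not tested.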

How the data were processed

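Total RNA of sorted cells was made into SmartSeq2 libraries, per the labels' protocols. The submitters' processing notes name FastQC, cutadapt and HISAT2 and the builds NCBIM37 and mm9, without version or role. What the authors deposited is an FPKM value for each of 36811 genes in each of 6 libraries, with cuffnorm in the name of the table. Annotation, strand setting and filters were not stated in the sources used here, so overlapping and antisense genes cannot be told apart. Library sums lay between 1502822 and 1940807 FPKM.

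GENCODE M21 on GRCm38 gave symbols for 31840 of 36811 identifiers, as well as biotypes and transcript lengths (the longest principal coding transcript). Members and lists were chosen with earlier results of these data known. Psmb9, Psme3ip1 and Paaf1 had no matched row, so 4 of 5 planned ratios were computed.

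A gene was tested if its mean reached 1 FPKM. The test was limma 3.58.1 (R 4.3.3) with a variance trend on log2(FPKM + 1), a scale that understates the change of low genes, and the Benjamini-Hochberg adjustment ran over all genes tested. The naming rule took the immune and constitutive catalytic subunits, the 2 most abundant and up to 4 smallest-p members of each role, and members with an unadjusted p under 0.05 or without overlap, 39 in all. From each pathway list it took genes with an unadjusted p under 0.05 and the 2 smallest p. The other members, Tap1, Nfe2l2 and Irf1 were added after their values were seen, and 1 gene that the rule took is not reported here. Ratios were tested by exact two-sided permutation of 6 libraries. FPKM values are no counts, so no count test was run. Fragments were estimated from the lowest frequent value of FPKM times length among genes with a single transcript of at least 2000 bases. The fit was tested on simulated data. Alternatives were pseudocounts, filters, scalings, variance models, library weights, a replicate block and libraries left out. Tables and figures used Python 3.11.15, numpy 2.4.6, pandas 2.3.3, scipy 1.17.1 and matplotlib 3.10.9.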

Additional observations from a re-analysis of the deposited data

How the results depend on the processing

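No member passed the adjusted threshold under any of the 18 alternatives. Over members and the 8 other named genes, 989 alternative log2 differences were computed. Their lowest adjusted p with limma was 0.316, 911 kept their sign and 78 did not, all of the latter in genes that never passed, and the cause was not tested. Libraries of at most 5011000 estimated fragments left Psmc3ip, Psmg4 and Psme4 with 27, 50 and 51 fragments in their shallowest library. The setting without cKO replicate 2 and WT replicate 2 was chosen after seeing the data and keeps 2 libraries a group.

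The number of members higher under the cKO label at an unadjusted p under 0.05, 1 in the report, was 2 with no filter on low values, 0 after quantile normalization, 6 with equal sums of FPKM, 0 with trimmed-mean scaling, 0 with no variance trend and 8 with library quality weights. With libraries left out it ran from 0 to 3. The median log2 difference of all members was 0.0090 after quantile normalization and 0.27 with equal sums. That of the core was 0.32, that of the 19S cap 0.20 and that of the immune subunits 0.19 with equal sums, and the 19S cap lay at -0.057 after quantile normalization. With libraries left out the 19S median ran from 0.015 to 0.18. The log2 difference of the Psmb8 to Psmb5 ratio then ran from -0.22 to 0.093 and that of Psme2 to Psmc1 from -0.12 to 0.18.

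Signs changed in single genes. Quantile normalization gave -0.034 for Psma6, -0.070 for Psmb10, -0.0020 for Psmb3, -0.024 for Psmb6, -0.088 for Psmc3, -0.057 for Psmd1, -0.063 for Psmd14, -0.023 for Psmd3, -0.056 for Psme3, -0.061 for Psmf1 and -0.080 for Tap1. Equal sums gave 0.11 for Irf1, 0.099 for Psmc4, 0.15 for Psmc6, 0.076 for Psmd11, 0.073 for Psmd2, 0.061 for Psmd4, 0.12 for Psmd7, 0.11 for Psmg3 and 0.066 for Psmg4. Trimmed-mean scaling gave -0.018 for Psmb8, -0.0089 for Psmd1, -0.023 for Psme1, -0.017 for Psmf1 and -0.0041 for Tap1. Library quality weights gave -0.039 for Psmb10, 0.061 for Psmc4, 0.034 for Psmd11, 0.045 for Psmd2 and 0.0050 for Psmd4. With 1 library left out, or with cKO 2 and WT 2 left out together, values ran for Irf1 from -0.14 to 0.10, Psma7 from -0.053 to 0.20, Psmb10 from -0.083 to 0.13, Psmb5 from -0.0086 to 0.26, Psmb6 from -0.10 to 0.20, Psmb7 from -0.071 to 0.41, Psmb8 from -0.083 to 0.098, Psmc3 from -0.10 to 0.15, Psmc3ip from -0.63 to 0.00023 and Psmc4 from -0.18 to 0.18. They ran for Psmc6 from -0.13 to 0.11, Psmd1 from -0.12 to 0.12, Psmd11 from -0.20 to 0.20, Psmd13 from -0.00022 to 0.28, Psmd14 from -0.034 to 0.15, Psmd2 from -0.20 to 0.25, Psmd3 from -0.036 to 0.30, Psmd4 from -0.16 to 0.056, Psmd5 from -0.32 to 0.12 and Psmd7 from -0.11 to 0.045. For the rest the ranges were, for Psme1 from -0.063 to 0.064, Psme3 from -0.040 to 0.096, Psme4 from -0.18 to 0.29, Psmf1 from -0.10 to 0.15, Psmg1 from -0.087 to 0.43, Psmg3 from -0.16 to 0.092, Psmg4 from -0.84 to 0.30 and Tap1 from -0.096 to 0.26.

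With the replicate number as a block, 0 members passed and 37 lay above 0, as without it. Deviations of same-numbered libraries correlated at -0.06, -0.18 and -0.02 over genes, so the numbers were not taken to pair the libraries. The planned ratio of Psmb9 to Psmb6 was not run.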
